A study of Mus musculus with 18 samples.

Results

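Lepr, which encodes the receptor of the adipose hormone leptin, was examined in mouse liver together with its annotated transcripts. It is 1 of the 52230 genes to which the transcripts of the deposited tables could be joined, and 7 of its transcripts were quantified. The gene is named in the study among those higher in male LL than in male PP liver. It was thus selected on its male LL to male PP fold change. The male libraries also enter the comparisons between the sexes, so all these levels are given as a description with no test. The comparison of female LL with female PP liver shares no library with the choice, and Lepr was tested there.

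The mice belonged to a knock-in line (GCKR-P446L-EMI-B6N) in which the glucokinase regulatory protein, GKRP, carries leucine (446L) or proline (446P) at residue 446. Homozygous 446P mice are called PP and homozygous 446L mice LL. There were 4 male PP mice, aged 9 to 14 weeks by their labels, 4 male LL mice (13 to 14 weeks), 5 female PP mice (9 to 14 weeks) and 5 female LL mice (11 to 14 weeks). All 18 were kept on standard chow, and 1 liver RNA library was made from each.

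Leptin binds a class I cytokine receptor that has no kinase of its own and signals through the bound kinase Jak2 to the transcription factors Stat3 and Stat5. Alternative last exons give a long form (Ob-Rb), with the intracellular part that binds the STAT proteins, and short forms (Ob-Ra, Ob-Rc and others) with short intracellular tails. A soluble form of the extracellular part circulates and binds leptin in plasma. In mice the short form Ob-Ra is widespread outside the brain, and the long form is best known from the hypothalamus.

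Lepr (ENSMUSG00000057722) lies on the plus strand of chromosome 4, at chr4:101574601-101676237 of GRCm39. The transcripts Lepr-201, Lepr-202 and Lepr-203 share 2667 coding bases, or 889 codons, and then end in different exons. Lepr-203 adds 5 codons, which gives the 894 codons of Ob-Ra. Lepr-202 adds 3 codons by reading on past the last shared splice site, as in Ob-Rc. Lepr-201 adds 273 codons, which gives the 1162 codons of the long form Ob-Rb. The coding sequence at this junction is what tells the 3 forms apart and is shown 5′ to 3′ on the plus strand, with the last 30 shared bases in lower case and the bases of the own end in capitals. For Lepr-203 and Lepr-202 the capitals run through the stop codon, and for Lepr-201 they are the first 60 of 822 own bases.
Lepr-203: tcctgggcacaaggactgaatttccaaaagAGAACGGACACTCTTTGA
Lepr-202: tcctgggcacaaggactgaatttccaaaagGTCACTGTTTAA
Lepr-201: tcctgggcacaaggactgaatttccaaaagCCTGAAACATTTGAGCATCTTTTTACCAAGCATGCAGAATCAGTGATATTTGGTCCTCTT
The shared bases lie at chr4:101649238-101649267. The own end of Lepr-203 begins at chr4:101668545 and that of Lepr-202 at chr4:101649268. That of Lepr-201 begins at chr4:101671645. The sequences are those of the GENCODE transcripts, placed on GRCm39.

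The other quantified transcripts were short models of the same locus. Lepr-204, Lepr-206 and Lepr-207 have no defined reading frame and 787, 415 and 889 bases, and Lepr-205 is a fragment of 208 bases. The last exon of Lepr-207 runs to chr4:101640092, past the splice site that ends this exon in Lepr-203. Whether any of these models stands for a soluble form was not examined. A further 4 transcripts of the later annotation (Lepr-208 to Lepr-211) were not quantified by the authors and were not analysed here. Lepr-208, Lepr-209 and Lepr-210 hold nearly all of the last exon of Lepr-203, so reads from them could be counted on Lepr-203. Of these, Lepr-209 ends its coding sequence in an earlier exon, and Lepr-210 is annotated for nonsense-mediated decay. The transcripts differ in how readily reads can be told apart. Of the 31-base words of Lepr-203, 42.1% occurred in no other quantified Lepr transcript, against 22.1% for Lepr-201 and 3.02% for Lepr-202. For Lepr-201 the deposited tables used a model of 4127 bases, while the later annotation gives it 7815 bases with a last exon of 4593 bases. Reads from the added end of that exon had no place on Lepr-201 in these tables.

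**Figure D1:**
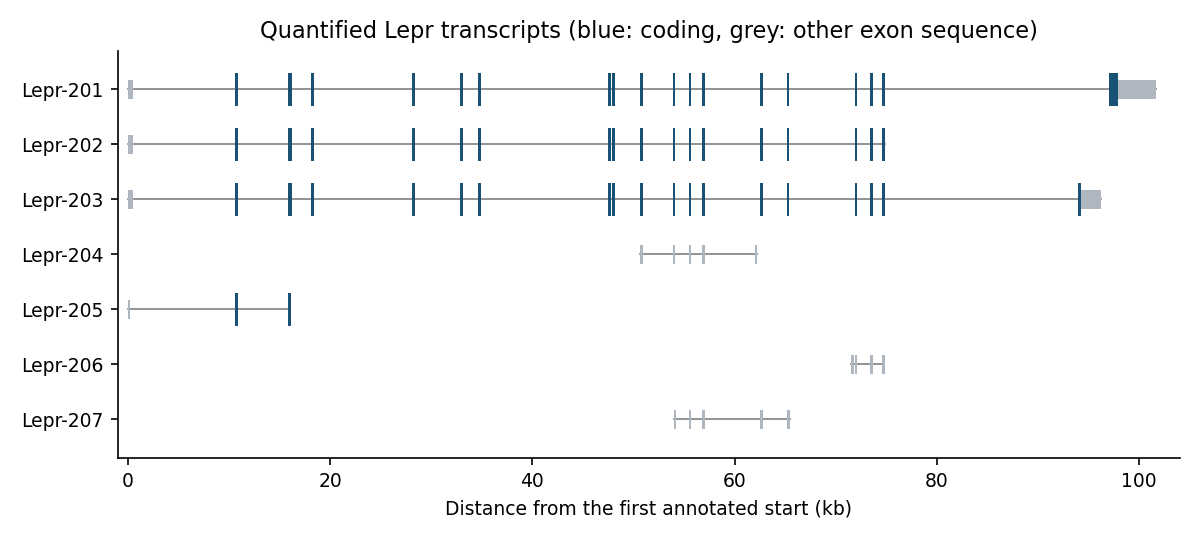
Exons of the 7 quantified Lepr transcripts against distance from the first annotated start in kilobases, with coding parts in blue and other exon parts in grey. Short exons are drawn at a fixed minimum width. Lepr-201, Lepr-202 and Lepr-203 have the same exons up to the last shared splice site and differ in the end of the transcript.

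Among the quantified transcripts, the short form Lepr-203 held almost all liver Lepr reads. Over the 18 libraries Lepr held 790.5 estimated counts (the numbers of fragments that Salmon assigned), of which 760.9, or 96.3%, were on Lepr-203. It had counts in 17 libraries. By group, Lepr-203 held 86.5% of the 14.8 counts of male PP, 99.1% of the 112.2 counts of male LL, 95.9% of the 422.6 counts of female PP and 96.2% of the 240.9 counts of female LL mice.

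In male PP mice Lepr-203 had 3.04, 0, 4.98 and 4.82 estimated counts. In male LL mice it had 15.6, 20.6, 18.1 and 56.9. Female PP mice had 50.01, 79.9, 55.4, 95.2 and 124.6, and female LL mice had 46.1, 43.6, 44.6, 55.8 and 41.6. Every male PP library was below every library of the other 3 groups, and the male LL 4 library lay within the range of the females.

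The long form Lepr-201, which carries the STAT-binding tail, had 1.45 estimated counts in female LL 2 and 1.73 in female LL 5 and 0 in the other 16 libraries. These 3.18 counts were 1.32% of the Lepr counts of female LL mice. In female PP mice Lepr-201 had 0 of 422.6 counts, which allows a share of up to 0.710%, and in male LL mice 0 of 112.2, which allows up to 2.67%. In male PP mice 0 of 14.8 counts allows up to 20.2%, so the long form could not be limited there. These limits, like all intervals on counts given here, cover counting error only. They also take every Lepr-201 read to be recognised, whereas only 22.1% of its words were its own and its model in the tables was shortened, so the true limits are wider.

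The short form Lepr-202 had 4.29 estimated counts in female PP 2 and 4.83 in female PP 4 and 0 elsewhere. Lepr-207 had counts in 5 libraries, at most 5.65 in female PP 2. Lepr-206 had about 1 count in each of male PP 2, male LL 2 and female LL 1. Lepr-204 had 1.15 counts in female LL 4, and Lepr-205 had 0 in every library. The 6 transcripts other than Lepr-203 together held 29.5 counts, which is too few to compare between groups.

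**Figure D2:**
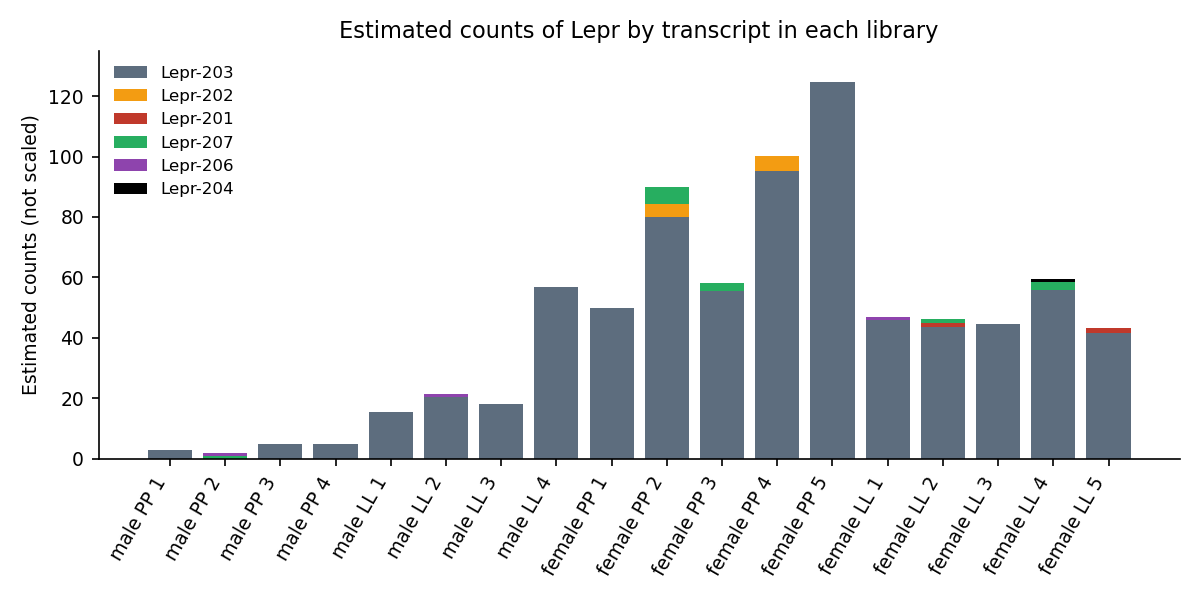
Estimated counts of Lepr in each of the 18 libraries, not scaled for depth, stacked by transcript. Lepr-203 makes up nearly all of each bar, from 3.04 counts in male PP 1 to 124.6 in female PP 5, and male PP 2 has about 1 count each on Lepr-206 and Lepr-207 only.

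A scale per length is needed to compare transcripts. On the TPM scale (transcript abundance scaled by length and to the same total in each library), Lepr-203 was at 0.0698, 0, 0.0600 and 0.0775 in male PP mice and at 0.520, 0.686, 0.333 and 1.00 in male LL mice. Female PP mice had 1.14, 2.24, 1.25, 2.69 and 2.56 TPM, and female LL mice had 1.18, 1.19, 1.01, 2.26 and 1.43. The order of the group means was the same as in counts, from 0.0518 ± 0.0353 TPM in male PP (SD, n = 4) through 0.635 ± 0.284 in male LL (SD, n = 4) and 1.41 ± 0.496 in female LL (SD, n = 5) to 1.98 ± 0.733 in female PP mice (SD, n = 5).

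TPM summed over all Lepr transcripts is less steady, because a single count on a short transcript weighs heavily. In male PP 2 the 2.00 counts on Lepr-206 and Lepr-207 came to 0.797 TPM, against 0.0600 to 0.0775 in the other male PP libraries. In male LL 2 the 1.00 count on Lepr-206 raised the sum from 0.686 to 1.41 TPM. Counts and the TPM of Lepr-203 were therefore used for the group levels. By summed TPM, Lepr was a gene of low to middle level: it stood above 7.76% to 41.2% of the genes with TPM above 0 in male PP libraries and above 42.2% to 61.6% of them in female PP libraries.

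Lepr counts were then scaled between libraries by DESeq2 size factors, and these are called normalized counts. They were 4.80, 2.10, 4.70 and 4.50 in male PP mice, with a mean of 4.02 ± 1.29 (SD, n = 4). In male LL mice they were 20.7, 26.4, 16.1 and 61.6, with a mean of 31.2 ± 20.7 (SD, n = 4). In female PP mice they were 39.9, 81.8, 48.7, 90.6 and 86.8, with a mean of 69.6 ± 23.5 (SD, n = 5), and in female LL mice 42.8, 45.4, 36.6, 74.0 and 47.1, with a mean of 49.2 ± 14.5 (SD, n = 5).

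The order of the means was therefore male PP, male LL, female LL and female PP. In normalized counts, only the step from male PP to male LL separated neighbouring groups without overlap. The ranges of male LL and female LL overlapped there through male LL 4. In TPM of Lepr-203 they just failed to overlap, with 1.00 in the highest male LL and 1.01 in the lowest female LL library, and the ratio of means was 2.22. The ranges of female LL and female PP overlapped widely on both scales.

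**Figure D3:**
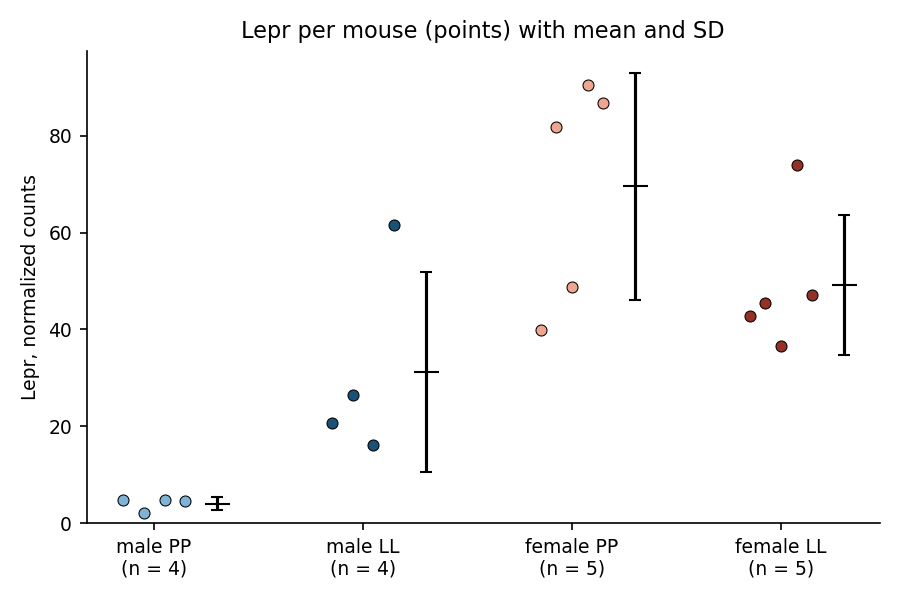
Normalized counts of Lepr in each mouse (points) by group, with the group mean and SD (bars). The 4 male PP mice lie between 2.10 and 4.80, below all 14 other mice.

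In males, the normalized count was 7.75 times higher in LL than in PP mice. The log2 fold change (log2 FC) fitted by DESeq2 was 2.96 ± 0.52 (SE), which carries no test because this contrast chose the gene. The groups did not overlap, as also held, in the same direction, for 1.80% of the 10938 genes tested. The lowest male LL library held 16 counts after rounding and the highest male PP library 5 counts. Their 95% exact Poisson intervals overlapped, with a lower bound of 9.15 for the former and an upper bound of 11.7 for the latter. These intervals are on counts not scaled for depth. The former library, male LL 1, held 4314316 estimated counts in total, against 6613905 in the latter, male PP 3. Male LL 4 carried a large part of the mean: without it the log2 FC was 2.38 ± 0.51. Without male PP 2, which had the fewest Lepr counts, it was 2.74 ± 0.56. Male PP 3 and male PP 4, both of 14 weeks, had 4.70 and 4.50 normalized counts, against 16.1 to 61.6 in the male LL mice of 13 to 14 weeks, and the log2 FC with age as a term was 2.86 ± 0.52.

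Between the sexes, Lepr was 17.3 times higher in PP females than in PP males, with a fitted log2 FC of 4.12 ± 0.50 (SE). These groups did not overlap either, which held in the same direction for 5.21% of the genes tested. In LL mice the sexes were closer, with a fitted log2 FC of 0.65 ± 0.36 (SE) for female over male, and the groups overlapped. The latter value depended on single male LL libraries, at 1.23 ± 0.35 without male LL 4 and 0.42 ± 0.37 without male LL 3. The female minus the male log2 FC for the LL genotype was -3.47 ± 0.61 (SE), given as a description because it contains the male contrast. No P is given for any of these, for the same reason.

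In females, the question was whether the LL genotype changed Lepr in the sex that did not choose it. The mean was lower in LL mice, at 70.7% of the female PP mean, and the groups overlapped. The log2 FC was -0.51 ± 0.32 (SE; 95% interval -1.14 to 0.13), and the DESeq2 adjusted P was 0.516 (unadjusted P = 0.116). On the fold scale the interval ran from 0.454 to 1.09, so it held an equal level and did not hold a ratio as high as that between the male groups. A two-sided exact permutation test on the normalized counts gave P = 0.0952, where the smallest P that 5 against 5 mice allow is 0.00794. The difference thus passed neither test.

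The exact test was sensitive to single mice. Without female PP 1, the female PP mouse with the lowest level, the exact permutation P was 0.0317, and over the other libraries left out in turn it ranged from 0.0794 to 0.190. The fitted log2 FC stayed below 0 under every alternative run, from -0.70 to -0.35, with DESeq2 or edgeR adjusted P between 0.406 and 1.00. At the level of the transcript, Lepr-203 had a log2 FC of -0.52 ± 0.39 (SE) and a DESeq2 adjusted P of 0.781 over 19874 transcripts, of which 1.75% were called in females (1.04% in males). It was the only Lepr transcript with enough counts to be tested.

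Fragment length, estimated from the deposited effective lengths, differed between the female groups. It ranged from 369 to 631 bases in the PP females and from 247 to 376 bases in the LL females, whose ranges overlapped (n = 5 each, exact permutation P = 0.0159). With fragment length as a term the female log2 FC of Lepr was -0.48 ± 0.40, and with the effective transcript length as an offset it was -0.35 ± 0.52.

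Livers hold several cell types, and Lepr is known in stellate and endothelial cells as well as in hepatocytes. In whole tissue, fewer cells of a type and less RNA per cell cannot be told apart. Lists of marker genes were therefore set beside Lepr. The tissue label was borne out, as all 10 hepatocyte markers had at least 1170 normalized counts in every library, among them albumin (Alb) at 311509 normalized counts or more. Of the adipocyte markers, Lep, Adipoq and Retn were at 0 in all 18 libraries and Fabp4 alone was tested. None of the 8 lymphocyte markers reached the filter, nor did 5 of the 6 cholangiocyte markers, with Spp1 the exception.

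The sum of the hepatocyte markers had the same order of group means as Lepr, at 562776 in male PP, 660074 in male LL, 755721 in female LL and 874479 in female PP mice. Alb made up most of this sum and carried its order, at 348169, 450430, 566181 and 666570 in the same groups. The list as a whole did not share it: 6 markers were higher and 4 lower in LL than in PP males. In PP females against PP males the numbers were also 6 and 4. The sum was 1.55 times higher in PP females than in PP males, where 3 of 10 were DEGs (differentially expressed genes, called at an adjusted P under 0.05 with a ratio of 1.3 or more, or 0.7 or less), 2 of them higher and 1 lower in females. Of all genes tested 6.45% were called there, 3.68% as higher and 2.77% as lower in females. The hepatocyte sum was 1.17 times higher in LL males than in PP males, where DESeq2 and edgeR called 0 and 2 had an unadjusted P below 0.05. In LL females it was 0.864 times the PP level, with 0 called by either tool and 3 at an unadjusted P below 0.05. DESeq2 called 1 in males without male PP 1 or male LL 3, and 1 in females without female PP 1, female PP 4 or female LL 3. Of all genes tested, DESeq2 called 0.274% by genotype in males and 0.558% in females.

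Markers of endothelial cells had the same order of group means. The 12 markers summed to 283 to 495 normalized counts in male PP, 444 to 541 in male LL, 563 to 1056 in female PP and 439 to 787 in female LL mice, and none was at 0 throughout. The mean sum was 2.04 times higher in PP females than in PP males, and 9 of the 12 markers were called there, all higher in females, beside 3.68% of all genes. It was 1.26 times higher in LL males than in PP males, with 0 of 12 called by DESeq2 or edgeR and 0 with an unadjusted P below 0.05. In female LL mice it was 0.714 times the female PP level, close to the 0.707 of Lepr, with 0 of 12 called by either tool and 8 with an unadjusted P below 0.05. DESeq2 called 1 of them without female LL 3. In the female LL group, 1 mouse, female LL 4, had both the highest Lepr level (74.0 normalized counts) and the lowest endothelial sum (439).

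Markers of stellate cells, the retinoid-storing cells of the liver, summed to 520 to 965 normalized counts in male PP, 861 to 1227 in male LL, 1260 to 1514 in female PP and 893 to 1530 in female LL mice. No stellate marker was at 0 throughout, and 10 of the 12 were tested. Their mean sum was 2.00 times higher in PP females than in PP males, with 7 of 10 called, all higher in females, beside 3.68% of all genes. It was 1.51 times higher in LL males than in PP males, where all 10 had a log2 FC above 0, none was called by DESeq2 or edgeR and 3 had an unadjusted P below 0.05. It was 0.973 times the PP level in female LL mice. The mean stellate sums had the same order of groups as Lepr. The changes in the 3 marker sums were smaller than those of Lepr between the male groups and between the sexes in PP mice. Between the female groups the endothelial ratio (0.714) was close to that of Lepr (0.707), while the hepatocyte and stellate ratios were 0.864 and 0.973. The part of these cells in the level of Lepr was not tested.

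**Figure D4:**
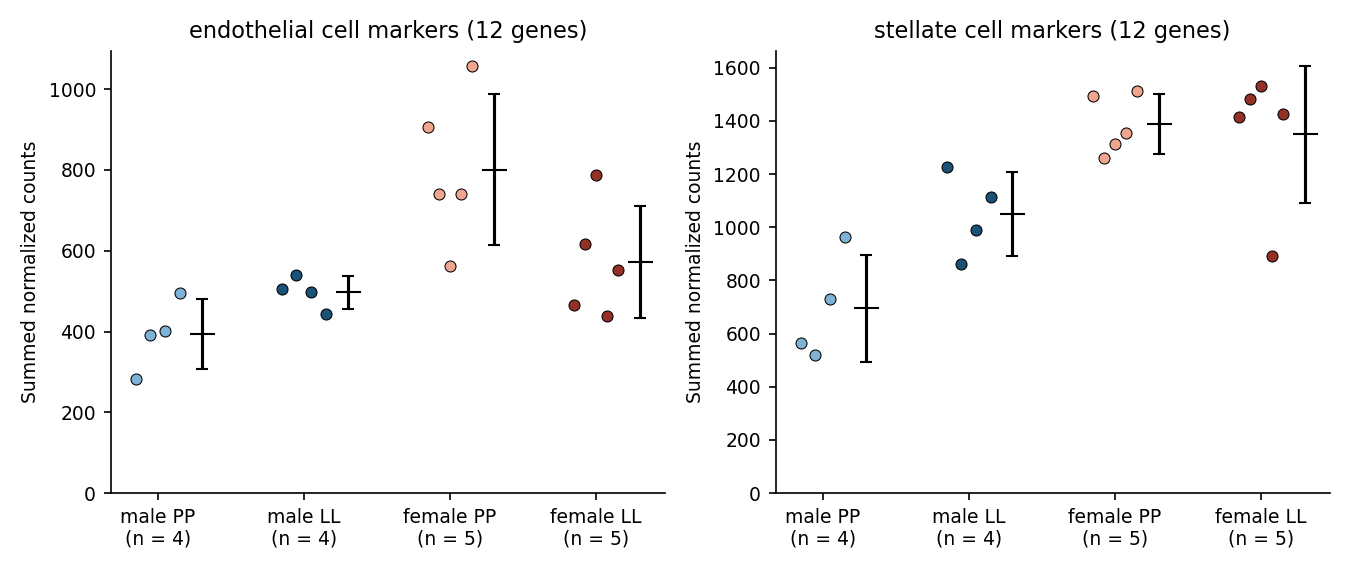
Summed normalized counts of 12 endothelial (left) and 12 stellate cell markers (right) in each mouse by group, with the group mean and SD. Both sums are lowest in male PP mice on average, and female LL 4 has the lowest endothelial sum of its group and a stellate sum of 893, below the other female LL mice.

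Among class I cytokine receptors, the family of Lepr, levels were compared as summed TPM over 24 other members. The growth hormone receptor Ghr stood first in every group, at 129 ± 31.3 TPM in male PP and 161 ± 29.9 in female PP mice, followed in female PP mice by the receptor of leukaemia inhibitory factor, Lifr (97.3 ± 13.9), and the prolactin receptor, Prlr (82.8 ± 20.2). Lepr stood in place 9 of 25 in male LL and in place 8 in both female groups. Its neighbours in female PP mice were the interleukin 4 receptor Il4ra, at 2.93 ± 0.413 TPM, and the interleukin 6 receptor Il6ra, at 2.40 ± 1.29 TPM, against 2.61 ± 1.05 for Lepr (SD, n = 5), values that lie within their spread of each other. No place is given for male PP mice, whose mean of 0.251 TPM rests on male PP 2, at 0.797 TPM from 2.00 counts, while the other 3 libraries had 0.0600 to 0.0775.

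**Figure D5:**
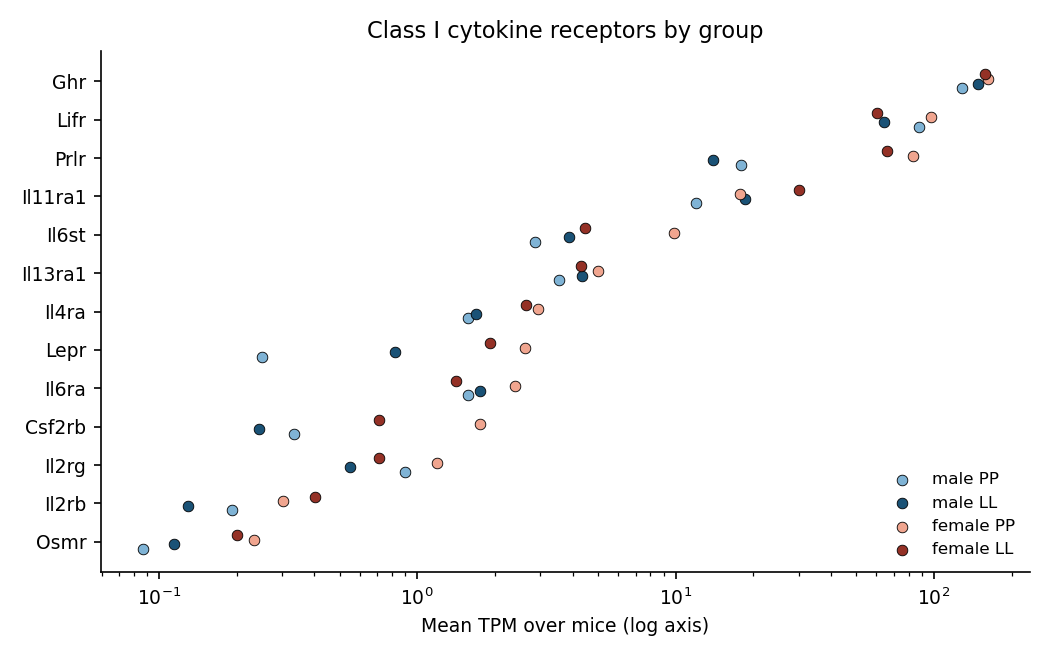
Mean TPM over the mice of each group (log axis) for Lepr and the 12 other class I cytokine receptors that passed the count filter. Ghr is highest in all 4 groups, and the Lepr points spread from 0.251 in male PP to 2.61 in female PP mice. The male PP point is carried by male PP 2, at 0.797 TPM, with the other 3 libraries at 0.0600 to 0.0775.

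None of the 12 other receptors tested was called by LL genotype in males or in females with DESeq2, and 2 had an unadjusted P below 0.05 in each sex. The share of all genes called was 0.274% in males and 0.558% in females. Lifr had a log2 FC of -0.77 ± 0.23 (SE; DESeq2 adjusted P = 0.137) in males and -0.55 ± 0.21 (adjusted P = 0.195) in females. Il6st, the gp130 chain that signals for the interleukin 6 family, was at -0.03 ± 0.20 in males (DESeq2 adjusted P = 0.996) and at -0.52 ± 0.18 in females (adjusted P = 0.149). Ghr had -0.01 ± 0.13 (adjusted P = 0.999) in males and 0.16 ± 0.11 (adjusted P = 0.589) in females. With edgeR 0 receptors were called in either sex. DESeq2 called 1 in males without male PP 4 or when the male groups were fitted alone, and 1 in females without female PP 4.

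Prlr was the receptor called as higher in females in both genotypes. It had 209 to 248 normalized counts in male PP, 186 to 508 in male LL, 850 to 1216 in female PP and 1008 to 1224 in female LL mice. The female groups lay above all males in both genotypes. The log2 FC for female over male was 2.19 ± 0.22 (SE) in PP and 1.99 ± 0.22 in LL mice, with Il11ra1 the other receptor called in PP mice (0.60 ± 0.21, DESeq2 adjusted P = 0.0483). Of the 12 receptors tested, DESeq2 thus called 2 as higher in PP females, beside 3.68% of all genes. In LL females it called 1, beside 3.33% of all genes. By genotype Prlr had a log2 FC of 0.29 ± 0.24 (DESeq2 adjusted P = 0.846) in males, in which male LL 1 alone was high, and 0.09 ± 0.20 (adjusted P = 0.905) in females.

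Leptin itself (Lep) was listed at 0 in all 18 libraries. Of the 29 genes on the list of leptin signalling, 26 were tested, and DESeq2 and edgeR called 0 of them by LL genotype in males and 0 in females. Of all genes DESeq2 called 0.274% in males and 0.558% in females, so 0 of 26 does not set the list apart. In males DESeq2 called 1 gene of the list without male PP 3 or without male LL 2. An unadjusted P below 0.05 was found for 4 in males and 2 in females. The median log2 FC of the list was 0.02 in males and -0.18 in females, beside 0.00 and 0.01 over all genes tested.

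The receptor kinase Jak2 had 46.8 ± 12.0 normalized counts in male PP, 47.1 ± 17.7 in male LL, 48.7 ± 8.65 in female PP and, among the LL females, 41.4 ± 6.74 (SD, n = 4, 4, 5 and 5). Its log2 FC between LL and PP was 0.01 ± 0.26 (SE) in males and -0.25 ± 0.23 in females (DESeq2 adjusted P = 0.999 and 0.703). Jak2 thus stayed within the spread between mice in groups that differed 17.3 times in Lepr.

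Stat3, the main transcription factor downstream of the long form, had 196 to 391 normalized counts in male PP and 137 to 235 in male LL mice. Its log2 FC was -0.56 ± 0.20 in males (SE; DESeq2 adjusted P = 0.288) and -0.24 ± 0.18 in females (adjusted P = 0.604). Stat5b, a STAT shared with the growth hormone and prolactin receptors, had -0.37 ± 0.22 in males and -0.08 ± 0.18 in females (DESeq2 adjusted P = 0.738 and 0.901). Socs3, a feedback inhibitor induced by Stat3, had 26.3 to 60.9 normalized counts in male PP and 16.8 to 36.6 in male LL mice, and its log2 FC was -0.78 ± 0.37 in males (adjusted P = 0.583) and 0.43 ± 0.33 in females (adjusted P = 0.616 by DESeq2). None of these differences passed the test.

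Ptpn1, the phosphatase that removes phosphate from Jak2, had a log2 FC of -0.27 ± 0.28 in males and -0.31 ± 0.24 in females (DESeq2 adjusted P = 0.913 and 0.644). The Jak2 adaptor Sh2b1 had 0.09 ± 0.19 and 0.18 ± 0.16 (DESeq2 adjusted P = 0.980 and 0.697). Between the sexes, 0 of the 26 genes were called in PP mice by DESeq2, beside 6.45% of all genes, with 4 at an unadjusted P below 0.05. In LL mice, where 6.12% of all genes were called (3.33% higher and 2.79% lower in females), 3 of 26 were called, namely Stat5b (0.65 ± 0.21, DESeq2 adjusted P = 0.0317), the growth hormone target Socs2 (1.31 ± 0.39, adjusted P = 0.0166) and, lower in females, the AMPK subunit Prkaa2 (-0.55 ± 0.18, adjusted P = 0.0303).

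Genes that act on the receptor protein were the next list. Leprot, which encodes a small membrane protein of endosomes that limits leptin receptor at the cell surface, lies upstream of Lepr on the same strand, at chr4:101504482-101516597. It had 48.0, 46.2, 53.6 and 42.3 normalized counts in male PP and 48.0, 21.6, 28.6 and 45.4 in male LL mice. In females it had 37.3 to 49.5 in PP and 25.2 to 53.7 in LL mice. All 4 groups overlapped, unlike Lepr. The log2 FC was -0.41 ± 0.25 in males and -0.11 ± 0.22 in females (SE; DESeq2 adjusted P = 0.745 and 0.884), and -0.10 ± 0.23 for female over male PP mice (adjusted P = 0.897).

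Its paralog Leprotl1 had a log2 FC of -0.11 ± 0.25 in males and 0.06 ± 0.20 in females (DESeq2 adjusted P = 0.979 and 0.940). Of the proteases that can shed the extracellular part of the receptor, Adam10 had 0.21 ± 0.18 and -0.08 ± 0.16 (DESeq2 adjusted P = 0.872 and 0.890), and Adam17 had 0.05 ± 0.23 and -0.44 ± 0.20 (DESeq2 adjusted P = 0.992 and 0.322). In all, DESeq2 and edgeR called 0 of the 9 tested genes of trafficking and shedding by genotype in either sex, with 1 in each sex at an unadjusted P below 0.05. Of all genes DESeq2 called 0.274% in males and 0.558% in females, so 0 of 9 does not set this list apart either.

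Acute-phase genes and other targets of Stat3 were lower in male LL mice in part. Of 19 tested, 3 were called, all lower in LL males than in PP males, as 0.119% of all genes were, and 10 had an unadjusted P below 0.05. The median log2 FC of the list was -0.66. Lcn2 and Orm2 received no adjusted P, since DESeq2 marks a gene with 1 extreme library in this way. Saa1, which encodes a serum amyloid A, had 2043, 12575, 591 and 750 normalized counts in male PP mice and 311, 366, 282 and 631 in male LL mice, with a log2 FC of -3.33 ± 0.69 (SE; DESeq2 adjusted P = 0.00144). The 2 groups overlapped, and male PP 2 was far above the rest. Without male PP 2 it was -1.50 ± 0.34 (DESeq2 adjusted P = 0.00914). Saa2 had a log2 FC of -3.74 ± 0.83 (adjusted P = 0.00528 by DESeq2), and without male PP 2 it was -1.07 ± 0.37 (adjusted P = 0.420). Lbp, the lipopolysaccharide-binding protein, had 226 to 441 normalized counts in male PP and 120 to 191 in male LL mice, without overlap, and a log2 FC of -1.02 ± 0.21 (DESeq2 adjusted P = 0.00144). With edgeR all 3 lost the call (adjusted P of 0.139 for Saa1, 0.183 for Saa2 and 0.113 for Lbp), and Saa1 and Saa2 also lost it with the replicate block. Kupffer cell and macrophage markers were lower in the same contrast, with 10 of 10 below 0 in log2 FC, 0 called by DESeq2 or edgeR and 8 at an unadjusted P below 0.05. Their sum was 675 to 1636 normalized counts in PP males and 623 to 1036 in LL males, a ratio of means of 0.653, and none was at 0 throughout. Male PP 2 and male LL 4, the highest of their groups for Saa1 and Saa2, were also the highest for this sum. The part of these cells in the acute-phase levels was not tested.

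In females none of the 19 was called by DESeq2 or edgeR, where DESeq2 called 0.558% of all genes. Of the 19, 2 had an unadjusted P below 0.05, and the median log2 FC was 0.06. Between the sexes in PP mice, 5 of 19 were called, all lower in females (Saa1, Saa2, Hp, Lrg1 and Orm1), beside 2.77% of all genes called lower there. Haptoglobin, Hp, had 12188 to 31222 normalized counts in male PP and 7516 to 10867 in female PP mice, without overlap. The library with the fewest Lepr counts, male PP 2, was the one with the highest Saa1 and Saa2. The other 3 male PP libraries had 591 to 2043 normalized counts of Saa1 with 4.50 to 4.80 of Lepr.

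Of 8 liver genes known to respond to leptin treatment, 1 was called by genotype in males, as a gene higher in LL mice, like 0.155% of all genes. The direction of their known response was not used. Scd1, the desaturase that makes monounsaturated fatty acids, had 9989, 9810, 18859 and 12488 normalized counts in male PP and 35996, 31423, 34889 and 39747 in male LL mice. The groups did not overlap, and the log2 FC was 1.47 ± 0.35 (SE; DESeq2 adjusted P = 0.00962). The study had already named Scd1 as higher in male LL mice from these libraries. The call was lost in 9 of 18 alternatives, namely with edgeR, with age as a term and without any 1 male library other than male PP 3, at DESeq2 or edgeR adjusted P up to 0.342, while the log2 FC stayed between 1.37 and 1.72. In females DESeq2 and edgeR called 0 of the 8, where DESeq2 called 0.558% of all genes. Of the 8, 2 had an unadjusted P below 0.05 in females, and Scd1 had -0.19 ± 0.31 (DESeq2 adjusted P = 0.861). In PP mice 4 of the 8 were called as higher in females, beside 3.68% of all genes, namely Scd1 (1.23 ± 0.33), Fasn (1.88 ± 0.20), Acaca (1.06 ± 0.18) and Me1 (0.82 ± 0.27), which are enzymes of fatty acid synthesis and of its NADPH supply.

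Over the 5 lists, 73 of 91 genes were tested and 71 had an adjusted P. DESeq2 called 4 in males, 5.48% of those tested beside 0.274% of all genes, and edgeR called 0. The lists were chosen with earlier results of these data known, and the study had named Scd1 as higher in male LL mice. The male share is therefore a description and does not set the lists apart. In females DESeq2 called 0, beside 0.558% of all genes, with 9 at an unadjusted P below 0.05, and edgeR called 0. The male count was 2 without male PP 2 and 7 without male PP 3, and the female count was 1 without female PP 4.

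Lepr stands in the study's list of genes responsive to carbohydrate. The study matched genes higher in male LL liver to earlier reported targets of the carbohydrate response factor ChREBP. Those targets came from fasted and refed mice and from hepatocytes or HepG2 cells given high glucose. The label is thus external. Both the direction and the call in males were drawn from these libraries, so the list is not independent evidence of either. Of its other 5 genes, Scd1 and Cyp17a1 were called as higher in male LL mice here, where 0.155% of all genes were. That share is no fair background for a list chosen by the same contrast. Cyp17a1, a steroid hydroxylase, had 28.8, 62.9, 31.02 and 49.5 normalized counts in male PP mice and 178, 108, 83.9 and 449 in male LL mice, with male LL 4 the highest male library as it was for Lepr. Its log2 FC was 2.24 ± 0.52 (SE; DESeq2 adjusted P = 0.00929), and the call was lost without male PP 1 or male PP 3, with edgeR and when the male groups were fitted alone.

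The peroxisomal enzyme Ehhadh had a log2 FC of 0.84 ± 0.24 in males (DESeq2 adjusted P = 0.0881), the aminopeptidase Enpep 0.43 ± 0.19 (adjusted P = 0.535) and the adhesion protein Tns3 0.70 ± 0.18 (adjusted P = 0.0512). In females 0 of the 5 were called with DESeq2 or edgeR, beside 0.558% of all genes with DESeq2, and 0 had an unadjusted P below 0.05. All 5 were called as higher in PP females than in PP males, beside 3.68% of all genes, from 0.67 ± 0.17 for Tns3 to 3.82 ± 0.50 for Cyp17a1, again with the male PP libraries shared with the list.

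The genes whose levels ran most like those of Lepr over the 18 libraries were sought among 10003 genes with a mean of at least 10 normalized counts, by Pearson's r of log2(normalized count + 1). The libraries share the 4 groups, so such a value mostly follows the group means. The highest were Nadk (r = 0.917, Spearman's rho 0.808), which encodes NAD kinase, Cyp17a1 (r = 0.895, rho 0.736), Alb (r = 0.889, rho 0.829), Nipal1 (r = 0.884, rho 0.819), an NIPA-like membrane protein, and the matrix protein Postn (r = 0.877, rho 0.651). Without the 2 libraries farthest from the median of Lepr, male PP 2 and male PP 4, r was between 0.824 and 0.902 for these 5.

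Nadk had 504 to 627 normalized counts in male PP, 745 to 787 in male LL, 818 to 1112 in female PP and 826 to 1046 in female LL mice, so its male PP mice were also apart from all others, though by far less than for Lepr. Nipal1 had 0 to 4.80 normalized counts in male PP, 1.20 to 24.9 in male LL, 18.2 to 43.1 in female LL and 21.6 to 58.2 in female PP mice, so its male groups overlapped, unlike those of Lepr.

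When the group means were taken out first, the genes nearest to Lepr included Dcaf12l1 (r = 0.815, rho 0.713), Nudt19 (r = 0.791, rho 0.761), Ndufaf6 (r = 0.782, rho 0.812) and Cnot8 (r = 0.780, rho 0.738), over the same 18 libraries. None of these 4 was among the 5 genes nearest over all libraries. Male LL 4 and female LL 4, the highest libraries of their groups for Lepr, were also the highest of their groups for Ndufaf6 (61.6 and 82.7 normalized counts) and Nudt19 (190.1 and 248). These values are descriptions of the most alike of 10003 genes and carry no P.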

How the data were processed

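Liver RNA libraries of 18 mice, 1 per mouse, were assigned to 4 groups from the sex and genotype labels. The authors ran Salmon 1.4.0, per the submitters' processing notes, against GENCODE M26 (GRCm39). The deposited estimated counts carry no scaling between libraries. The deposited TPM values were scaled by the authors for transcript length and to 1 total. Total estimated counts were 3794671 to 6613905 per library, so Lepr rests on 2.00 to 124.6 counts in a library. Here, transcripts were joined to genes through GENCODE M39 (137570 of 139225 joined, at the lowest 99.76% of counts), summed and rounded. Genes reaching 10 counts in 4 or more libraries were tested (10938) with DESeq2 1.42.0 in R 4.3.3, in 1 fit of all 4 groups with independent filtering off. Size factors and the Wald test with Benjamini-Hochberg adjustment were used. A DEG needed an adjusted P under 0.05 with a ratio of 1.3 or more, or 0.7 or less. edgeR 4.0.16 and other settings were alternatives. Exact permutation tests were two-sided. Replicate numbers name mice and follow the order of their age labels within each group, and nothing says how mice shared litters or cages. The series text gives 14 weeks for all mice, while the labels of single mice give 9 to 14 weeks. Named were Lepr, its transcripts, Leprot, a fixed set of pathway genes, list genes called by genotype, and the 5 genes most like Lepr by each measure, of which 1 is not reported here. Other list genes were named after their values were seen. Members and lists were chosen with earlier results of these data known.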

Additional observations from a re-analysis of the deposited data

Results flagged for a closer look

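Several values lay apart from the other mice of their group by Dixon's test, which flags about 1 in 20 groups by chance. Of 36 groups checked, 8 were flagged. For Lepr, male PP 2 was low, at 2.10 normalized counts against 4.50 to 4.80, and female LL 4 was high, at 74.0 against 36.6 to 47.1. The share of Lepr counts on Lepr-203 was 0% in male PP 2, which held 2.00 counts, and 95.4% in male LL 2, where 1.00 count fell on Lepr-206, against 100% in the other libraries of both groups. As those others tied at 100%, any single departure would be flagged, and the rate of 1 in 20 does not apply to this share. Saa1 and Saa2 were high in male PP 2, at 12575 and 7007 normalized counts, and Saa2 was also high in male LL 4, at 299 against 91.9 to 104.3. Cyp17a1 was high in female LL 3, at 1017 normalized counts.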

How the results depend on the processing

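Few counts limit what Lepr can show, above all in male PP mice and for the transcripts other than Lepr-203. The fitted changes of Lepr kept their direction under every alternative run, and the female contrast stayed above an adjusted P of 0.05 in each. Leaving out 1 library at a time, the log2 fold change of Lepr ranged from -0.70 to -0.40 between the female groups (transcript Lepr-203: -0.69 to -0.40), from 2.38 to 3.19 between the male groups, from 3.90 to 4.27 for female over male PP mice and from 0.42 to 1.23 for female over male LL mice. The difference in normalized counts between female LL and female PP mice ranged from -27.8 to -15.1, with an exact permutation P of 0.0317 without female PP 1 and of at least 0.0794 otherwise. The number of pathway genes called ranged from 2 (without male PP 2) to 7 (without male PP 3) in males and from 0 to 1 in females, and edgeR called 0 in males. Over all genes edgeR called 3 by genotype in males and 3 in females, against 30 and 61 by DESeq2. With fragment length as a term 14 were called in females and with the effective length offset 53 in males and 26 in females. Without 1 library the DESeq2 counts ranged from 20 (male PP 2) to 58 (male LL 4) in males and from 28 (female PP 5) to 240 (female PP 4) in females. Lepr-203 held 87.1% of Lepr TPM in LL males, 80.0% in PP females and 79.3% in LL females, against 98.8%, 95.9% and 96.4% of counts, as the mean of the mice. The TPM scale weighs short transcripts more. The called genes Saa1, Saa2, Scd1, Cyp17a1 and Lbp lost their calls in males with edgeR, and the cause was not tested.

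The replicate numbers did not pair the mice. The correlation of deviations from the group means between same-numbered PP and LL mice ranged from -0.17 to 0.05 in males and from -0.10 to 0.16 in females, and 2 of the 9 pairs were each other's best match. With the replicate block the female log2 fold change of Lepr was -0.47 ± 0.31 (DESeq2 adjusted P = 0.856) and that of Lepr-203 was -0.48 ± 0.36. The paired exact permutation P was 0.125. The block gave 24 calls in males and 43 in females over all genes. In males it left 4 pathway genes called, but Saa1 (adjusted P = 0.146 by DESeq2) and Saa2 (0.578) lost their calls.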

Other observations

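Kupffer cell and macrophage markers, which are no part of the leptin pathway, had lower fitted levels in LL than in PP mice of both sexes, with 10 of 10 below 0 in males and 10 of 10 in females. None was called by DESeq2 or edgeR in either sex, and 8 in males and 3 in females had an unadjusted P below 0.05. In males DESeq2 called 1 without male PP 1, male PP 3 or male LL 4. The 10 markers summed to 675 to 1636 normalized counts in male PP, 623 to 1036 in male LL, 1185 to 1445 in female PP and 734 to 1157 in female LL mice. Marco, a scavenger receptor, was at -1.25 ± 0.48 (SE) on the log2 scale in LL against PP males (DESeq2 adjusted P = 0.418) and at -0.72 ± 0.42 in LL against PP females (adjusted P = 0.470).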
